A study of Mus musculus with 24 samples.

Results

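The comparison set 6 mice given T-DM1 against 6 given naked trastuzumab, so 12 of the 24 samples of the study and all 16996 measured genes. Samples were chosen by treatment alone. The titles name trastuzumab for codes E2, F2, G2, H2, A3 and B3, and T-DM1 for codes C3, D3, E3, F3, G3 and H3. Both arms were wild-type female BALB/c mice aged 10-12 weeks that carried EMT6-hHER2 tumors, grown from a murine breast cancer line placed in the mammary fat pad at 8-10 weeks of age. Intravenous treatment (20 mg/kg trastuzumab or 15 mg/kg T-DM1) was given when tumors measured 80 mm3, and after 10 days the CD45+ cells were enriched with magnetic beads and sequenced, 1 library per mouse. The other 12 mice, 6 untreated and 6 given the anthracycline conjugate T-PNU at 1 mg/kg, carried the same tumors and entered the model only to estimate the spread of each gene. EMT6-hHER2 is 1 sorted clone with human HER2 inserted by a transposon, so human HER2 is carried by the tumor cells and not by the host. Antibody dose differed between the arms, and the column headings give each treatment consecutive numbers and neighbouring codes. What these numbers and codes stand for is not stated. The payload, the dose and whatever the numbers and codes record therefore cannot be told apart in this comparison.

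Trastuzumab binds HER2 on the tumor cell surface, interrupts its signalling and presents an Fc portion to Fc receptors of phagocytes and NK cells. T-DM1 (ado-trastuzumab emtansine) is the same antibody joined to DM1, a maytansinoid that binds tubulin, stops microtubules from assembling and arrests dividing cells in mitosis. The conjugate is taken up with HER2 and degraded in lysosomes, from which the transporter SLC46A3 exports the payload. Microtubule loss is also known to free the exchange factor GEF-H1 (Arhgef2) from microtubules and, in dendritic cells, to promote maturation. The CD45+ fraction of a tumor holds mainly macrophages, monocytes, neutrophils, dendritic cells and lymphocytes, and the comparison asks how these cells differ when the same antibody carries the microtubule payload.

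Promoters are shown for 4 genes described below. C1qb, a complement gene of macrophages, was called lower with T-DM1 and is shown with its neighbour C1qc, which did not pass the test (adjusted p = 0.054 in limma). Ankrd37 and Ddit4 were called higher. None of the 4 was called without E2 and B3, a pair of trastuzumab samples that stood apart. Each promoter runs from 250 bases before to 50 after the RefSeq start on GRCm38.p6, 5′ to 3′ on the gene's strand (minus for all 4), at chr4:136886151-136886450, chr4:136892865-136893164, chr8:45999801-46000100 and chr10:59951721-59952020 in that order. Capitals mark GAGGAA in C1qb and C1qc, the core bound by the myeloid factor PU.1, and ACGTG in Ankrd37 and Ddit4, the core bound by hypoxia-inducible factors, with both strands searched (TTCCTC and CACGT).
C1qb: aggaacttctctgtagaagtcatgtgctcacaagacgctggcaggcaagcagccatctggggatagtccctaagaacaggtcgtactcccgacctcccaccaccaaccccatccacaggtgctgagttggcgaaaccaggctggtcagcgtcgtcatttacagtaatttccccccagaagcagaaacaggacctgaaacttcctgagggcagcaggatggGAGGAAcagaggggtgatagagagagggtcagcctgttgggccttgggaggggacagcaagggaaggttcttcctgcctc
C1qc: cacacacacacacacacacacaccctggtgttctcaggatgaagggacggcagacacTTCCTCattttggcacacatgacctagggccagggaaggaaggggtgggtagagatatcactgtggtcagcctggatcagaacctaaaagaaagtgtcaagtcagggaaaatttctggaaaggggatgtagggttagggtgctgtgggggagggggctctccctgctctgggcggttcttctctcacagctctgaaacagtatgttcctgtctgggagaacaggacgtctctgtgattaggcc
Ankrd37: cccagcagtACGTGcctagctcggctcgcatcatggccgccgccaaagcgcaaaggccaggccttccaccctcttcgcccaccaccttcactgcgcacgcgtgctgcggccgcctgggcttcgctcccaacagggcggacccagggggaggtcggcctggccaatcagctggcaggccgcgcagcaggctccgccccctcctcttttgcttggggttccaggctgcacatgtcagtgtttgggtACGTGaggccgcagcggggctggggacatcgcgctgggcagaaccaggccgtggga
Ddit4: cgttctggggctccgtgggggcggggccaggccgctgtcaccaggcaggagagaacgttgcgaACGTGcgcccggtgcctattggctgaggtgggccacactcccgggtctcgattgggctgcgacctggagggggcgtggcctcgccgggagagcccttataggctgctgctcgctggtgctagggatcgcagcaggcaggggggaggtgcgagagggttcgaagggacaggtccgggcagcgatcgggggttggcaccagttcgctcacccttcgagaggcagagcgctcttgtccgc
GAGGAA matched once in each C1q promoter, at -30 and -193 from the start, and 28.3% of the 32851 promoters of the same length held it. ACGTG matched at -241 and -6 in Ankrd37 and at -187 in Ddit4, and 19.6% of promoters held it. These matches describe the letters of the windows only.

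Ptprc, which encodes CD45, ran from 14.01 to 14.61 on the log2 scale with T-DM1 (median 14.31) and from 14.24 to 15.08 with trastuzumab (median 14.65), so the arms overlapped for this gene. All 10 pan-leukocyte genes, Ptprc among them, were lower with T-DM1 (median log2 fold change -0.27), with none called. All values are log2 expression normalized by the authors, and the number of reads behind them is unknown. Trastuzumab samples E2 and B3 stood apart from the other 4. Their B cell marker levels, the mean deviation of 14 genes from the 12-sample average, were 2.24 and 1.87, against -1.47 to -0.18 in trastuzumab samples F2, G2, H2 and A3 and -1.65 to 1.35 with T-DM1. T cell levels were 1.40 and 0.97 in E2 and B3, against at most 0.01 in the other trastuzumab samples. T-DM1 samples E3 and G3 also had B cell levels above 1, at 1.09 and 1.35. The main results are therefore given with all samples and without E2 and B3. In bulk RNA of this kind, fewer cells of a type and less RNA per cell cannot be told apart.

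Over all samples, 110 of 16996 genes (0.647%) differed between T-DM1 and trastuzumab at an adjusted p under 0.05 in limma, 36 of them higher (0.212%) and 74 lower (0.435%) with T-DM1. Log2 fold changes ran from -1.97 to 1.58, and 16 falls and 3 rises exceeded 2-fold. The fit without E2 and B3 called 24 genes (0.141%), 6 higher (0.0353%) and 18 lower (0.106%), and all 24 were among the 110. All 110 kept their sign in that fit, which shares all its samples with the first. Their median absolute log2 fold change moved from 0.67 to 0.62, their median SE from 0.133 to 0.149, and their median adjusted p became 0.196. At an unadjusted p under 0.05, 2604 genes (15.3%) differed over all samples, 1355 higher (7.97%) and 1249 lower (7.35%). Without E2 and B3 they were 1745 (10.3%), 829 higher (4.88%) and 916 lower (5.39%).

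The number of calls rested on single libraries as well. Leaving out trastuzumab E2 or B3 left 38 genes in each case, and leaving out trastuzumab H2 left 44. It was 43 without T-DM1 D3, 32 without E3, 36 without F3 and 68 without G3, while 161 genes passed without trastuzumab G2, 113 of them lower. The other 4 fits of this kind gave 93 to 143 genes. Of the 110 genes, 29 were called in all 12 fits that each left out 1 library. Values of the 2 arms did not overlap, 6 samples against 6, for 425 genes (2.5%), with T-DM1 above for 192 (1.13%) and below for 233 (1.37%). Among the 110 called genes, 25 rises and 64 falls did not overlap. Most called genes had low values, with 77 of 110 below the median of all genes (8.80 on the log2 scale), where the deposited values may understate fold changes.

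**Figure D1:**
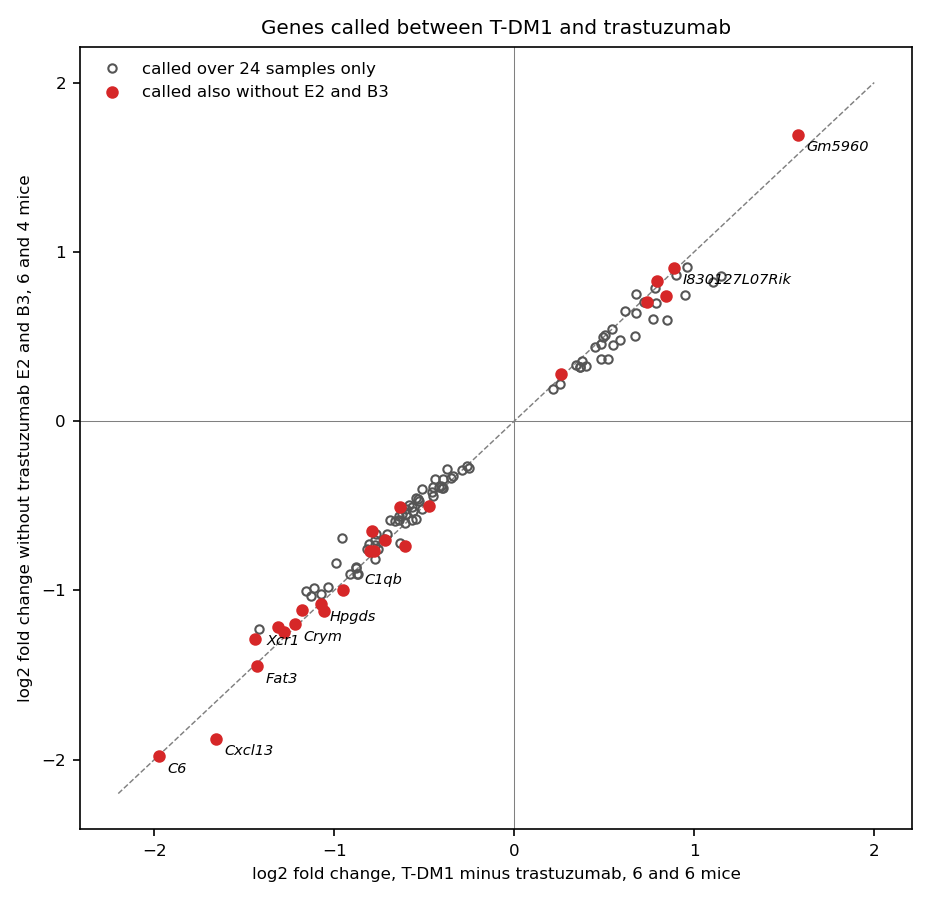
Log2 fold change of the 110 called genes, T-DM1 minus trastuzumab, with 6 and 6 mice on the x axis and with 6 and 4 mice, after E2 and B3 were left out, on the y axis. Red points are the 24 genes called in both fits, open points the others, and the dashed line marks equal values; all points lie in the lower left or upper right, from C6 at -1.97 to Gm5960 at 1.58.

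The largest fall was in C6, a terminal complement component that helps form the membrane attack complex. T-DM1 samples ran from 5.47 to 6.24 (median 5.77) and trastuzumab samples from 7.07 to 8.62 (median 7.79). The arms did not overlap, and T-DM1 was 3.93-fold lower (log2 fold change -1.97 ± 0.28 SE, limma adjusted p = 0.0013). Without E2 and B3 the change was -1.98 (adjusted p = 0.021). T-DM1 samples also lay below every untreated (6.26 to 8.47) and every T-PNU sample (7.08 to 7.98). C6, Siglece, Crym, Fat3, Myh10 and Plxdc2, which averaged under the median of all genes, were named after their values were seen.

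Cxcl13, the chemokine that draws B cells through CXCR5, ran from 5.57 to 5.99 (median 5.72) with T-DM1 and from 6.74 to 8.08 (median 7.36) with trastuzumab. All T-DM1 samples were below all trastuzumab samples, with a log2 fold change of -1.66 ± 0.31 (SE) and an adjusted p of 0.012, and of -1.88 (adjusted p = 0.028) without E2 and B3. Those trastuzumab samples, E2 and B3, had the highest B cell marker levels but not the highest Cxcl13, at 7.19 and 6.74. Untreated samples (5.62 to 7.65) and T-PNU samples (5.98 to 7.54) spanned the gap between the arms. Siglece, an inhibitory sialic acid receptor of myeloid cells, ran from 7.26 to 7.91 with T-DM1 and from 8.51 to 8.76 with trastuzumab, a change of -1.06 ± 0.19 (SE) that was called in both fits.

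Crym, which encodes a thyroid hormone-binding protein, was the fall with the lowest adjusted p. T-DM1 samples ran from 5.69 to 6.19 (median 5.99), and trastuzumab samples lay within 7.12 to 7.28 (median 7.18). The change was -1.22 ± 0.15 (SE, adjusted p = 0.00027) and -1.20 (adjusted p = 0.0062) without E2 and B3. Fat3, an atypical cadherin, fell by 1.43 on the log2 scale, from a median of 7.32 with trastuzumab to 5.85 with T-DM1. Myh10, the heavy chain of nonmuscle myosin IIB, fell by 1.44, and Plxdc2, a transmembrane protein with a plexin-like domain, fell by 1.28. These 4 genes were called in both fits, and in each of them all T-DM1 samples were below every sample of the other 3 groups. Among all 74 falls, 18 had this pattern (31 of all genes, 0.182%), as did 10 of the 18 falls called in both fits.

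**Figure D2:**
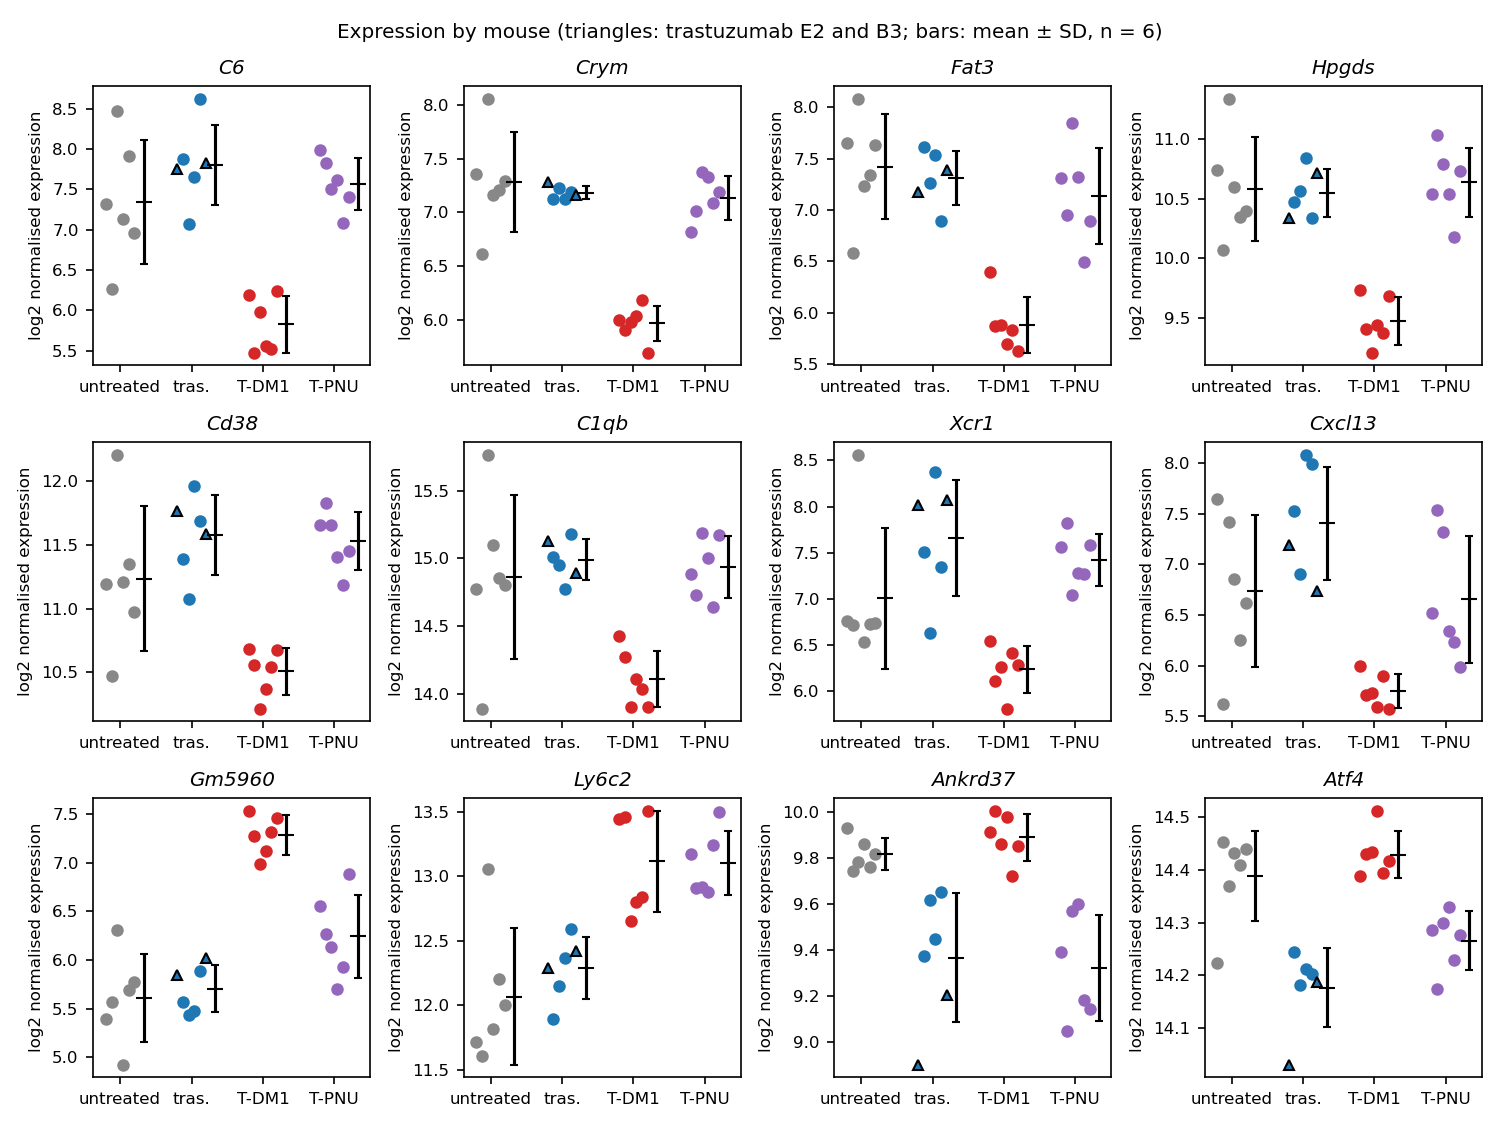
Log2 normalized expression of 12 genes in each mouse, by treatment, with the mean ± SD of 6 mice beside the points and triangles for trastuzumab E2 and B3. In C6, Crym, Fat3 and Hpgds the 6 T-DM1 points lie below all others, in Gm5960 they lie above all others, and in Atf4 and Ankrd37 they lie above trastuzumab but among the untreated samples.

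Among genes above the median of all genes, limma called 26 falls and 7 rises over all samples, and 4 falls and 0 rises in both fits. A separate fit of only these genes over all samples gave 572 rises and 605 falls at an unadjusted p under 0.05. Of the 4 falls called in both fits, that of Hpgds, the hematopoietic synthase that makes prostaglandin D2, was the largest. Hpgds ran from 9.21 to 9.73 (median 9.42) with T-DM1 and from 10.34 to 10.84 (median 10.52) with trastuzumab, with no overlap. The change was -1.07 ± 0.16 (SE, adjusted p = 0.0021), and -1.08 (adjusted p = 0.021) without E2 and B3. Acsl1, which activates long-chain fatty acids, ran from 10.87 to 11.20 with T-DM1 and from 11.55 to 12.10 with trastuzumab, a change of -0.80 ± 0.14 (SE, adjusted p = 0.0049). Trim35, a ubiquitin ligase of the tripartite-motif family, fell by 0.63 (adjusted p = 0.0031), and the arms did not overlap. A630033H20Rik, a gene without an established role, fell by 0.61 (adjusted p = 0.031), and its arms overlapped. It was called in 4 of the 12 fits that left out 1 library (highest adjusted p 0.10), and the other 3 falls in all 12.

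The next 8 falls above the median, ordered by p, were called over all samples but not without E2 and B3. Cd38, an ectoenzyme that consumes NAD and is used as a marker of activated leukocytes, ran from 10.21 to 10.69 with T-DM1 and from 11.07 to 11.97 with trastuzumab. It fell by 1.07 ± 0.19 (SE, adjusted p = 0.0086), and by 1.02 (adjusted p = 0.097) without E2 and B3. It was called in all 12 fits that left out 1 library. Kcnk13, a leak potassium channel, fell by 0.87, and Sash1, a signalling scaffold protein, fell by 0.91. Mcoln2, an endolysosomal cation channel, fell by 0.56, and Atp6v0e2, a subunit of the proton pump that acidifies lysosomes, fell by 0.60. Lrrc8c, a subunit of the volume-regulated anion channel, fell by 0.54, and Gramd1b, which carries cholesterol from the plasma membrane to the endoplasmic reticulum, fell by 0.53. Mapre2, the last of the 8, is given with the microtubule genes. In all 8, which were picked by p from these same samples, the arms did not overlap. The same held for 64 of all 74 called falls and, with T-DM1 below, for 1.37% of all genes.

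Macrophage markers were mostly lower with T-DM1. Of 21 genes on the list 18 had a negative log2 fold change, and the median was -0.40, against -0.0014 for all genes. On the list 1 gene, C1qb, was called lower, beside 0.435% of all genes. At an unadjusted p under 0.05, 10 were lower (7.35% of all genes) and 0 higher. Without E2 and B3 the median was -0.50, with 20 of 21 negative and none called. The summed level of the list, as a mean deviation, ran from -0.52 to -0.02 with T-DM1 and from 0.03 to 0.46 with trastuzumab, so the arms did not overlap. The list was chosen with earlier results of these data known, and no test of it was made.

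C1qb encodes a chain of C1q, the initiator of the classical complement pathway, which macrophages make and which binds antibody on target cells. It ran from 13.91 to 14.43 (median 14.08) with T-DM1 and from 14.77 to 15.18 (median 14.98) with trastuzumab. The change was -0.88 ± 0.19 (SE, adjusted p = 0.031), and -0.87 (adjusted p = 0.20) without E2 and B3. The call was kept in 3 of the 12 fits that left out 1 library, those without C3, F2 or G2, and the highest adjusted p among the 12 was 0.086. The genes for the other chains, C1qa and C1qc, lie beside it on chromosome 4 within 136880129 to 136898803 (GRCm38). C1qa ran from 13.93 to 14.58 with T-DM1 and from 14.72 to 15.30 with trastuzumab, a difference of -0.78 ± 0.20 (SE, adjusted p = 0.063). For C1qc the ranges were 13.46 to 14.14 and 14.34 to 14.79, and the difference was -0.81 ± 0.20 (SE, adjusted p = 0.054). None of the 3 overlapped between the arms, and T-DM1 lay wholly below trastuzumab in 1.37% of all genes. Untreated samples spanned both ranges, from 13.89 to 15.76 in C1qb. C1qa and C1qc were named after their values were seen.

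Other macrophage genes had similar values without passing the test. Adgre1 (F4/80), the usual surface marker of mouse macrophages, had a difference of -0.72 ± 0.22 (SE), Mertk, a receptor for the uptake of dying cells, had -0.73 ± 0.21, and Cx3cr1, the fractalkine receptor, had -0.87 ± 0.24. These 3 did not overlap between the arms and were named after their values were seen. On the list, 6 of 21 genes had all T-DM1 samples below all trastuzumab samples, as did 233 of all genes (1.37%). Gpnmb, a lysosomal glycoprotein of lipid-laden macrophages, had the most positive difference of the list, 0.43 ± 0.23 (SE). Fc receptor genes, through which phagocytes bind antibody, were lower in 12 of 15 (median -0.25, none called). Of these genes, 6 were lower at an unadjusted p under 0.05 (7.35% of all genes). Fcgr4, an activating receptor for IgG, had the most negative difference, -0.55 ± 0.24 (SE), and Fcgr1, the high-affinity receptor, had 0.05 ± 0.20, turning negative when C3 or H3 was left out.

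Monocyte markers did not move as one. Of 14 genes 9 were higher and 5 lower (median 0.30, or 0.12 without E2 and B3), and none was called. The highest was Ly6c2, the surface protein that marks inflammatory monocytes, which ran from 12.65 to 13.50 (median 13.14) with T-DM1 and from 11.90 to 12.60 (median 12.33) with trastuzumab. The arms did not overlap, and the difference was 0.83 ± 0.20 (SE, adjusted p = 0.056). T-PNU samples were as high as T-DM1 samples, from 12.88 to 13.50. At the other end, Ccl7, a chemokine that recruits monocytes through CCR2, had a difference of -0.71 ± 0.24 (SE, adjusted p = 0.15).

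The 2 called rises with the lowest p lay beside Ly6c2 on chromosome 15. Gm5960, an unprocessed pseudogene at 75071112 to 75074638 (GRCm38), ran from 6.99 to 7.54 (median 7.30) with T-DM1 and from 5.44 to 6.03 (median 5.71) with trastuzumab. It was 2.98-fold higher (log2 fold change 1.58 ± 0.20 SE, adjusted p = 0.00027; 1.69 and 0.0023 without E2 and B3). I830127L07Rik, a transcribed pseudogene at 75131377 to 75135128, ran from 4.98 to 5.31 with T-DM1 and from 4.02 to 4.47 with trastuzumab, a change of 0.89 ± 0.11 (SE, adjusted p = 0.00027; 0.0044 without E2 and B3). In both, all T-DM1 samples were above every sample of the other 3 groups, as in 14 of the 36 rises (67 of all genes, 0.394%). Both have no symbol in the deposited table and were named after their values were seen.

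Of the 18 measured genes within 500 kb, these were the only 2 called. Ly6c1, the near copy of Ly6c2, did not overlap between the arms either (12.02 to 12.81 with T-DM1, 11.44 to 11.94 with trastuzumab, adjusted p = 0.073). The arms overlapped for Arc, Slurp1, Lynx1, Ly6d, Mroh4 and Them6, with differences of 0.70, 0.67, 0.55, 0.38, 0.31 and 0.18. For Jrk, Gm6610, 2010109I03Rik and Gm8000 they overlapped at -0.003, -0.02, -0.06 and -0.22. They overlapped as well for Ly6a, Ly6i, Ly6e and Ly6g, which encode related surface proteins, with differences of -0.01, 0.14, 0.16 and -0.27. Reads of 81 bases cannot always separate these genes: Ly6c1 and Ly6c2 share 235 windows of that length, 13.3% of those in Ly6c1 and 8.59% of those in Ly6c2, so each of these values is uncertain. Gm5960 and I830127L07Rik share 4 windows with each other (of 326 and 804) and none with another gene. How reads that match both were assigned was not tested.

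**Figure D3:**
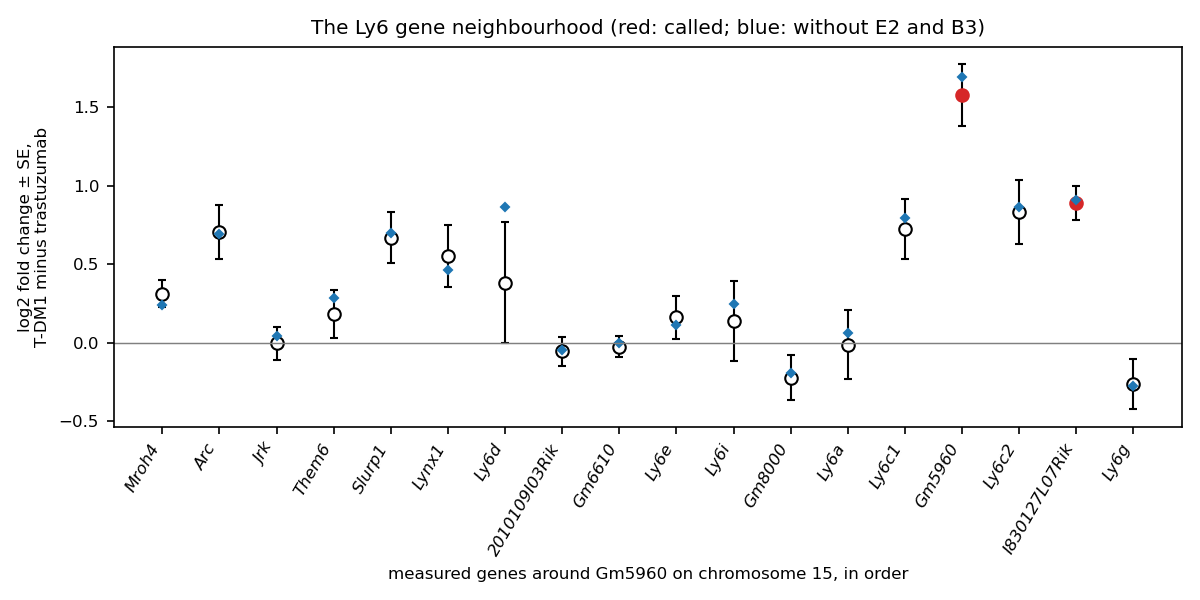
Log2 fold change ± SE, T-DM1 minus trastuzumab (6 and 6 mice), of the 18 measured genes around Gm5960 in their order on chromosome 15, with blue diamonds for the values without E2 and B3. Gm5960 (1.58) and I830127L07Rik (0.89), in red, were called, while Ly6c1 and Ly6c2 beside them (0.72 and 0.83) were not.

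Conventional dendritic cell markers were lower in 16 of 16 genes over all samples (median -0.32), and in 13 of 16 (median -0.10) without E2 and B3. Over all samples, 6 were lower at an unadjusted p under 0.05 (7.35% of all genes) and 0 higher. Xcr1, the chemokine receptor of cross-presenting dendritic cells, was the 1 call (0.435% of all genes were called lower). It ran from 5.81 to 6.54 (median 6.28) with T-DM1 and from 6.63 to 8.37 (median 7.76) with trastuzumab, a change of -1.42 ± 0.29 (SE, adjusted p = 0.023), which became -1.23 (adjusted p = 0.20) without E2 and B3. E2 and B3 were among the 3 highest trastuzumab samples for Xcr1, at 8.02 and 8.08. Untreated samples ran from 6.53 to 8.56 with a median of 6.73, nearer to the T-DM1 median. The call was lost without E2, H2, B3, D3, E3 or F3, and the highest adjusted p was 0.069.

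Clec9a, the receptor by which the same cells sense dead-cell actin, had a difference of -1.04 ± 0.30 (SE, adjusted p = 0.10), and its arms overlapped. Tlr12, a Toll-like receptor for parasite profilin, ran from 5.92 to 6.79 with T-DM1 and from 6.89 to 8.11 with trastuzumab and fell by 1.15 (adjusted p = 0.0068; 0.098 without E2 and B3). In untreated samples Tlr12 ran from 6.68 to 8.00 (median 6.87), between the medians of the arms. Clec9a and Tlr12 were named after their values were seen. Genes of dendritic cell maturation were divided, with 6 of 20 higher, 14 lower and none called (median -0.11), and with 9 higher and 11 lower (median -0.02) without E2 and B3. Cacnb3, a calcium channel subunit, had the most positive difference, 0.58 ± 0.18 (SE, adjusted p = 0.13), without overlap. Pdcd1lg2, which encodes the checkpoint ligand PD-L2, had the most negative, -0.83 ± 0.27 (SE, adjusted p = 0.15). Plasmacytoid dendritic cell markers were higher in 3 and lower in 5 of 8, with none called (median -0.24, or -0.03 without E2 and B3), from Ccr9 at -0.47 to Bst2 at 0.38.

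Genes of MHC class II, which presents antigen to CD4 T cells, were lower in 10 of 10 with none called (median -0.48), and in 8 of 10 (median -0.22) without E2 and B3. Over all samples, 5 were lower at an unadjusted p under 0.05 (7.35% of all genes) and 0 higher. E2 and B3 had the highest levels of this list, 1.19 and 0.71, against -0.94 to 0.38 in the other samples. H2-Eb1 had the most negative difference, -0.63 ± 0.23 (SE, adjusted p = 0.19), and H2-Oa changed sign, from -0.03 to 0.73, without E2 and B3. MHC class I genes were close to 0 (median 0.05, or 0.10 without E2 and B3, 11 of 14 higher and none called), from Nlrc5, the transactivator of the pathway, at -0.14 to the proteasome gene Psmb10 at 0.18.

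Lymphocyte lists depended on E2 and B3. B cell markers had a median of -0.13 over all samples and of 0.83 without the pair, when all 14 were higher, with none called in either fit. T cell markers moved from -0.10 to 0.44, with 16 of 18 then higher. The list of naive lymphocytes and lymph node moved from 0.0044 to 0.78, and Cxcl13 was its 1 call (over all samples, 0.435% of all genes were called lower). Plasma cell markers moved from -0.20 to 0.28. E2 and B3, which had the highest B cell levels (2.24 and 1.87), were left out of the trastuzumab arm only. T-DM1 samples E3 and G3, with B cell levels of 1.09 and 1.35, stayed in. These shifts came with leaving out samples of 1 arm only, so they are not read here as a difference between the treatments. The cause of the shifts was not tested. For single genes, Pax5, the B cell master regulator, ran from 6.82 to 10.33 with T-DM1 and from 6.94 to 11.19 with trastuzumab. The part of lymphocytes in the other results was not tested.

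Cytotoxic and NK cell genes were lower in 18 of 18 (median -0.40, none called), and in 15 of 18 (median -0.22) without E2 and B3. Ifng, the defining cytokine of type 1 responses, had the most negative difference, -0.86 ± 0.37 (SE, adjusted p = 0.26). Regulatory T cell and checkpoint genes had a median of -0.16 (2 of 14 higher), from Tigit at -0.38 to Tnfrsf9 at 0.04, and none was called. Without E2 and B3 the median of this list was 0.02, with 7 higher and 7 lower. Neutrophil genes were lower in 16 of 20 with none called (median -0.20), from Retnlg at -0.60 to Mmp9 at 0.52. Eosinophil, basophil and mast cell genes were lower in 11 of 13 with none called (median -0.36, or -0.24 without E2 and B3). Ccr3, the eotaxin receptor of eosinophils, ran from 6.02 to 7.47 with T-DM1 and from 7.48 to 7.95 with trastuzumab, with an adjusted p of 0.069.

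**Figure D4:**
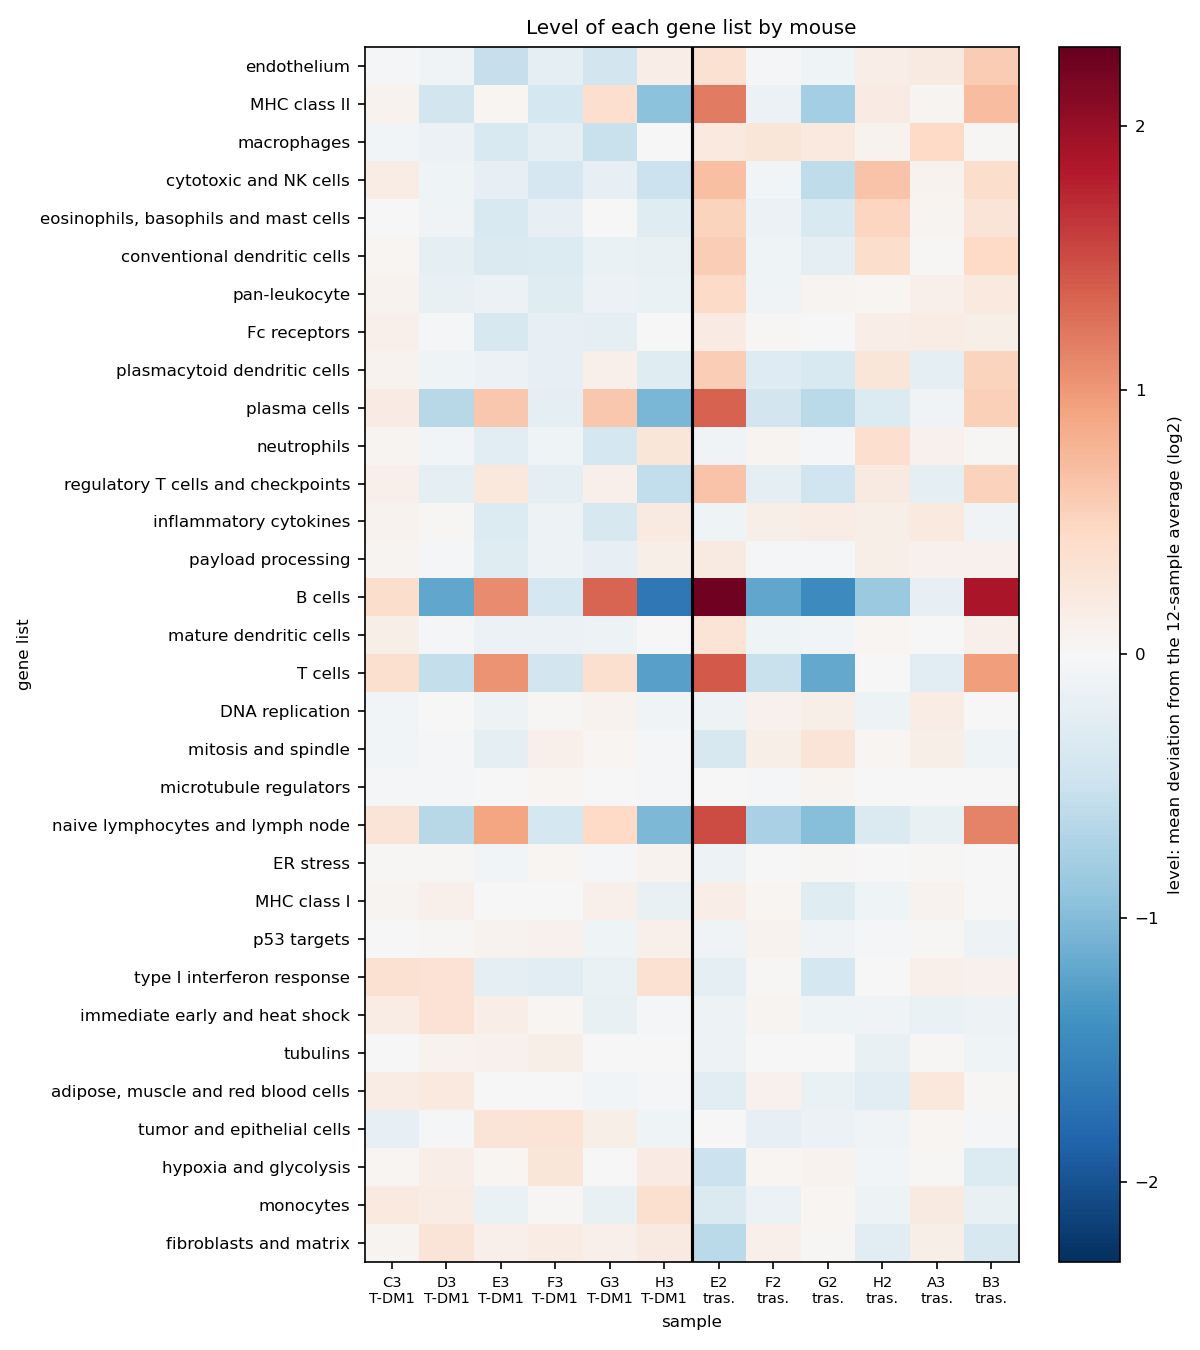
Level of each of the gene lists in the 6 T-DM1 and 6 trastuzumab mice, as the mean deviation of its genes from the 12-sample average on the log2 scale (red above, blue below). Trastuzumab E2 and B3 carry the highest B cell levels (2.24 and 1.87), and the macrophage row is at or below -0.02 in every T-DM1 mouse and at or above 0.03 in every trastuzumab mouse.

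Tubulins, the target of DM1, had differences between -0.19 and 0.38. Of 17 genes 14 were higher with T-DM1 (median 0.14) and none was called. At an unadjusted p under 0.05, 3 were higher (7.97% of all genes). Without E2 and B3, 11 of 17 were higher (median 0.09). Tubb5, the main beta-tubulin of leukocytes, ran from 15.06 to 15.33 with T-DM1 and from 14.71 to 15.27 with trastuzumab, a difference of 0.20 ± 0.12 (SE). The most positive was Tubg2, a gamma-tubulin of the nucleating ring, at 0.38 ± 0.12 (SE, adjusted p = 0.13), whose arms did not overlap, as in Tubb2a (0.25 ± 0.10). The most negative was Tubd1, delta-tubulin of the centriole, at -0.19 ± 0.10 (SE). The alpha-tubulins Tuba1b (0.03) and Tuba1c (0.14) changed sign without E2 and B3. Tubulin genes share long coding stretches, so reads may be divided among them and single values are uncertain.

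The 22 microtubule regulators had a median of -0.02, or -0.04 without E2 and B3. Their 1 call, beside 0.435% of all genes called lower, was Mapre2, a protein of growing microtubule ends. It ran from 11.28 to 11.45 with T-DM1 and from 11.59 to 11.98 with trastuzumab and fell by 0.40 ± 0.08 (SE, adjusted p = 0.023; 0.16 without E2 and B3, and not called without E2, H2, B3, D3 or E3). Arhgef2, the exchange factor freed when microtubules come apart, ran from 12.19 to 12.39 with T-DM1 and from 12.22 to 12.52 with trastuzumab, a difference of -0.04 ± 0.08 (SE). Of 15 genes that process or export the payload, 13 were lower (median -0.15) and 1 was called lower (0.435% of all genes). This was Abcb1b, a P-glycoprotein that pumps drugs such as maytansinoids out of cells. It ran from 10.09 to 10.48 with T-DM1 and from 10.51 to 11.05 with trastuzumab and fell by 0.51 ± 0.11 (SE, adjusted p = 0.027), or by 0.40 (adjusted p = 0.23) without E2 and B3. Its call was lost without E2, H2, B3, D3, E3, F3 or G3. Slc46a3 ran from 5.75 to 6.27 with T-DM1 and from 5.82 to 7.12 with trastuzumab, with a difference of -0.28 ± 0.22 (SE) that became 0.02 without the pair.

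Cell cycle genes overlapped between the arms as a list, with levels from -0.22 to 0.13 with T-DM1 and from -0.36 to 0.30 with trastuzumab. Of 25 genes of mitosis and the spindle 7 were higher and 18 lower (median -0.06, or -0.21 without E2 and B3), with none called. Mki67, the proliferation marker Ki-67, had the most negative difference, -0.44 ± 0.14 (SE, adjusted p = 0.13), with T-DM1 samples from 12.46 to 12.83 below trastuzumab samples from 12.86 to 13.24. Cdc20, an activator of the anaphase-promoting complex, had the most positive, 0.24 ± 0.15 (SE). DNA replication genes were lower in 15 of 20 (median -0.09, or -0.14 without E2 and B3, none called), from Pole, the leading-strand polymerase, at -0.26 to Gins2 at 0.21. Targets of p53 were higher in 9 of 16 (median 0.11, none called), from Fas at -0.24 to Phlda3 at 0.48, and in 8 of 16 (median 0.02) without E2 and B3.

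Among the called rises above the median of all genes was Ankrd37. This gene, a target of hypoxia-inducible factors, ran from 9.72 to 10.00 (median 9.89) with T-DM1 and from 8.90 to 9.65 (median 9.41) with trastuzumab. It rose by 0.52 ± 0.11 (SE, adjusted p = 0.027), and E2 and B3 had the lowest values of the 12 samples, 8.90 and 9.20. Untreated samples, from 9.74 to 9.93, lay with T-DM1. Ddit4, a stress-induced inhibitor of mTORC1, ran from 10.40 to 10.79 with T-DM1 and from 10.12 to 10.28 with trastuzumab and rose by 0.37 ± 0.08 (SE, adjusted p = 0.032). Gadd45g, a stress and growth arrest gene, ran from 10.36 to 11.17 with T-DM1 and from 9.78 to 10.28 with trastuzumab and rose by 0.78 ± 0.16 (SE, adjusted p = 0.024).

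Genes of endoplasmic reticulum stress were higher in 10 of 16 (median 0.01), but in 5 of 16 (median -0.04) without E2 and B3. The 1 call on this list, beside 0.212% of all genes called higher, was Atf4, the transcription factor of the integrated stress response. It ran from 14.39 to 14.51 with T-DM1 and from 14.03 to 14.24 with trastuzumab, a rise of 0.25 ± 0.05 (SE, adjusted p = 0.027), and untreated samples ran from 14.22 to 14.45. Isg20, an interferon-induced exonuclease, ran from 11.80 to 12.10 with T-DM1 and from 10.96 to 11.64 with trastuzumab, and all T-DM1 samples were above every untreated and T-PNU sample. It rose by 0.59 ± 0.13 (SE, adjusted p = 0.027). Hist1h1c, a linker histone, rose by 0.48 and the noncoding transcript 1110038B12Rik by 0.40. None of these 7 rises was called without E2 and B3, where their adjusted p lay between 0.15 and 0.32. Each was called in 3 to 6 of the 12 fits that left out 1 library and lost its call without E2 or B3 alone.

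The next rises by p did not pass the test. Mgp, matrix Gla protein of connective tissue, ran from 10.18 to 10.72 with T-DM1 and from 7.92 to 9.88 with trastuzumab, a difference of 1.32 ± 0.33 (SE, adjusted p = 0.059), and of 0.84 without E2 and B3. Slc4a2, an anion exchanger, had 0.39 (adjusted p = 0.054), Arc, an immediate early gene, had 0.70 (adjusted p = 0.056), and Atraid had 0.29 (adjusted p = 0.059). Among 16 hypoxia and glycolysis genes 14 were higher (median 0.23, or 0.11 without E2 and B3) and none was called, from Hif1a at -0.23 to Car9, a carbonic anhydrase induced by hypoxia, at 0.67. Immediate early and heat shock genes were higher in 11 of 16 (median 0.13, none called), with Jun at 0.49 ± 0.13 (SE, adjusted p = 0.071) and Atf3 at -0.15.

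Type I interferon response genes were higher in 20 of 24 (median 0.13 with and without E2 and B3) and none was called. Irf7, the regulator that amplifies the response, had the most positive difference, 0.46 ± 0.21 (SE, adjusted p = 0.28). Cxcl10, a chemokine for activated T cells, had the most negative, -0.50 ± 0.17 (SE, adjusted p = 0.16), with values from 12.54 to 13.26 with T-DM1 and from 13.24 to 13.64 with trastuzumab. Cxcl9, a related chemokine, had a difference of -0.87 ± 0.25 (SE, adjusted p = 0.11) and stood lowest among the inflammatory cytokines, of which 16 of 21 were lower (median -0.16, none called). Lif, a cytokine of the interleukin-6 family, stood highest at 0.17 and was -0.13 without E2 and B3.

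Markers of cells that the CD45 beads should leave behind were also measured, but not all are particular to such cells. Thy1 is on both the fibroblast and the T cell list, and Lyve1 on both the endothelial and the macrophage list. Fibroblast and matrix genes were higher in 14 of 18 (median 0.45), with none called. At an unadjusted p under 0.05, 7 were higher (7.97% of all genes). Their level ran from 0.07 to 0.30 with T-DM1 and from -0.62 to 0.13 with trastuzumab, lowest in E2 and B3 at -0.62 and -0.37, and the median without these samples was 0.16. Col6a1, a collagen VI chain, had the most positive difference, 0.81 ± 0.30 (SE), and Postn the most negative, -0.46 ± 0.24. Among called genes, Aspn, a small matrix proteoglycan (0.96), Spon2, a secreted matrix protein (0.90), and Itgbl1, an integrin-like secreted protein (1.15), were higher as well and were named after their values were seen. None of these was called without E2 and B3, and Itgbl1 was called in 3 of the 12 fits that left out 1 library. The part of such cells in the other rises was not tested.

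Endothelial genes were lower in 13 of 14 (median -0.50, or -0.28 without E2 and B3), with none called. At an unadjusted p under 0.05 (7.35% of all genes lower, 7.97% higher), 9 were lower and 1 higher. Their level ran from -0.52 to 0.15 with T-DM1 and from -0.09 to 0.58 with trastuzumab, while Kdr, the VEGF receptor, had a difference of 0.52 ± 0.22 (SE). Tumor and epithelial genes were higher in 11 of 16 (median 0.17, none called), from Krt14 at -0.34 to Cldn4 at 0.52, with levels from -0.19 to 0.31 with T-DM1 and from -0.19 to 0.04 with trastuzumab. Adipose, muscle and red blood cell genes were higher in 8 of 9 measured (median 0.15, none called). Of 10 pan-leukocyte genes, 5 were lower at an unadjusted p under 0.05 (7.35% of all genes) and 0 higher. Pan-leukocyte genes were lower in 10 of 10 (median -0.27, or -0.17 without E2 and B3), with none called. Of these, Lcp1, the leukocyte actin-bundling protein plastin, ran from 14.85 to 15.36 with T-DM1 and from 15.48 to 15.78 with trastuzumab (adjusted p = 0.084), and Cyba was nearest to 0, at -0.06.

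**Figure D5:**
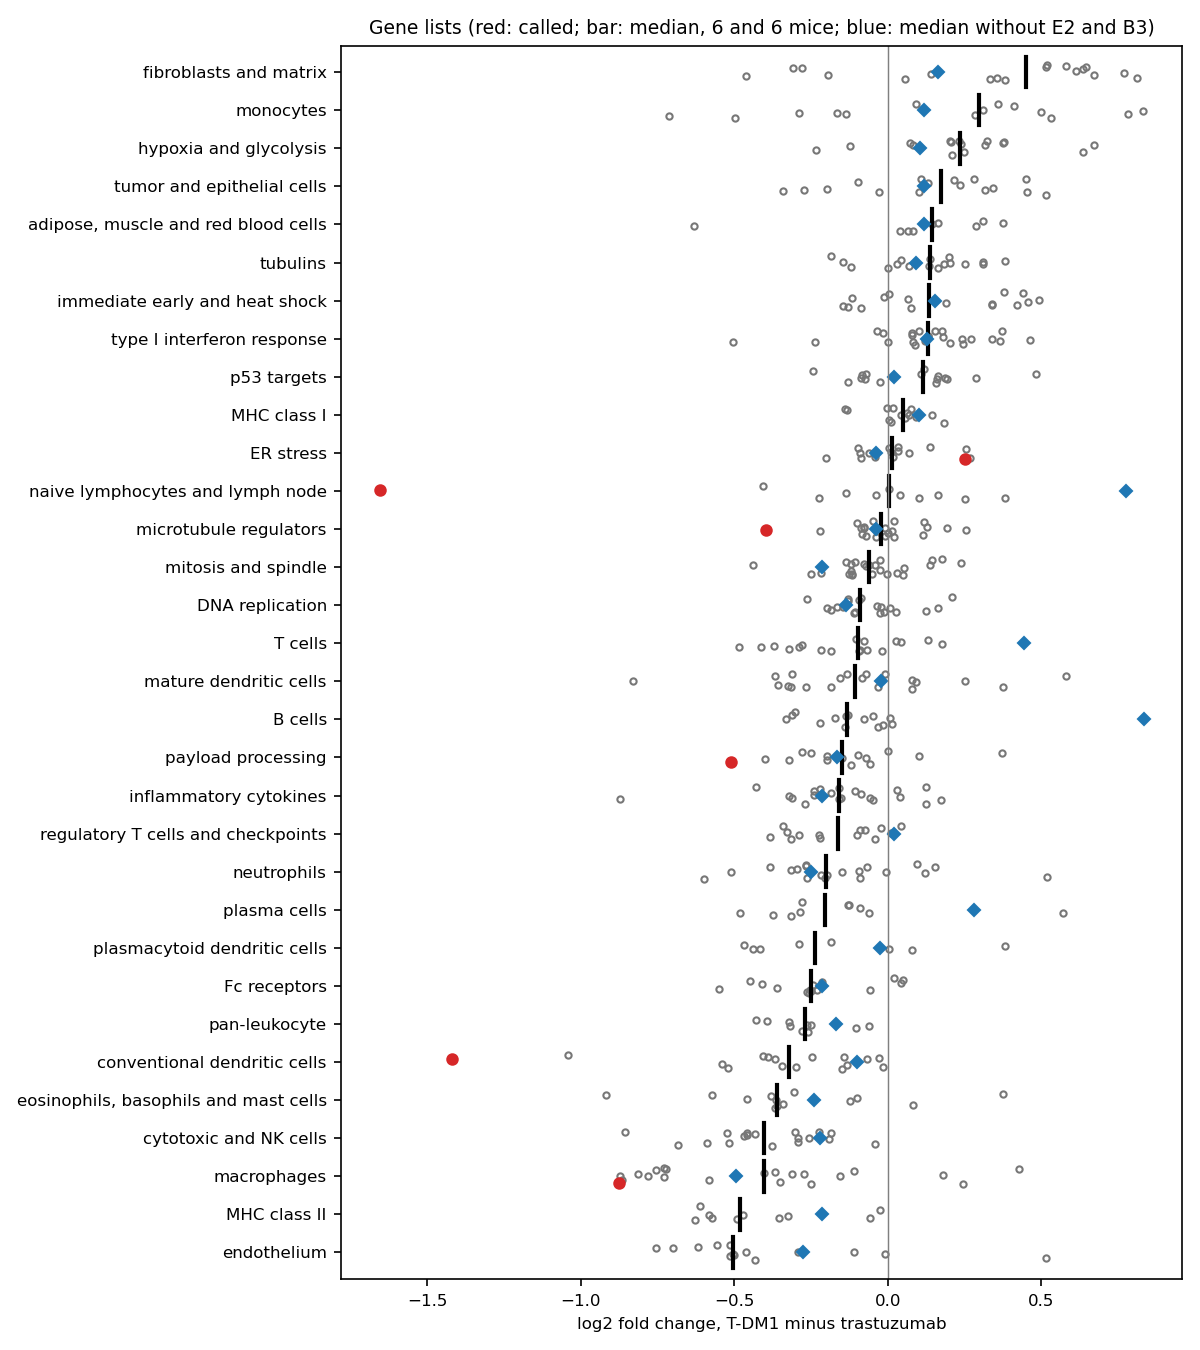
Log2 fold change of every measured gene of each list, T-DM1 minus trastuzumab, with called genes in red, the median of 6 and 6 mice as a black bar and the median without E2 and B3 as a blue diamond. The macrophage median stays negative (-0.40 and -0.50). The B cell median goes from -0.13 to 0.83 once E2 and B3, the samples highest in B cell markers, leave the trastuzumab arm.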

How the data were processed

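Libraries of 81-base single reads, from CD45+ cells of 24 tumors, were made with a stranded mRNA kit. The authors mapped them with STAR 2.4.2a (mm10, as the submitters' processing notes give it), counted reads per gene on the reverse strand with featureCounts (Subread 1.5.0), dropped genes with few reads on average and compared groups with DESeq2. The deposited values are log2 expression, normalized by the authors for library size, for 16996 genes, and the transformation is not given in the sources used here. If the values were shrunken gene by gene, fold changes of low genes are understated. Counts were not recovered, so the depth is not known and count models could not be used.

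Differences were tested with limma 3.58.1 in R 4.3.3 (1 mean per treatment over 24 samples, empirical Bayes with a trend, 20 residual degrees of freedom), with Benjamini-Hochberg adjustment over all genes and a threshold of 0.05. Nothing says more of the replicates than 1 mouse per library, so p-values measure the spread between mice. Named genes were, among annotated genes averaging above the overall median, up to 12 per direction called with and without E2 and B3 and then the next by p; called list members, or else those with the largest and smallest change; and Ptprc, Arhgef2, Slc46a3 and the tubulins. Members and the 32 gene lists were chosen with earlier results of these data known, and 12 of 516 list genes had no value. For the level of a list in a sample, the deviations of its genes from their 12-sample averages were averaged. Positions came from GENCODE M21 (99.6% of identifiers matched), promoters from RefSeq. Alternatives were 8 other settings and 12 fits without 1 library. The steps were tested on simulated data. Plots used matplotlib 3.10.9 under Python 3.11.15.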

Additional observations from a re-analysis of the deposited data

Results flagged for a closer look

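In groups of 6 mice, 23 of 312 sets of values (7.37%) held 1 sample whose gap to the nearest other exceeded 0.625 of the range (Dixon's test at the 95% level). Chance flags about 1 in 20 such groups, and the values share their samples.

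Among T-DM1 samples, H3 stood apart in Tubd1, a centriolar tubulin (7.14, against 6.96 to 7.01 in the others), in the checkpoint receptor gene Tigit (8.15, others 8.60 to 8.72), in the antibody gene Igha (7.06, others 7.88 to 8.13) and in the proteasome gene Psmb10 (11.96, others 12.44 to 12.68). H3 also had the lowest T cell and B cell levels of the T-DM1 samples. C3 was low in Tuba1a (12.05, others 12.32 to 12.46) and Tubb2b (9.74, others 10.09 to 10.29) and high in Fat3 (6.40, others 5.62 to 5.88), where it was still below every trastuzumab sample. E3 was high in Mab21l3 (6.31). F3 was high in Agt, the precursor of angiotensin (4.87, others 3.97 to 4.21), and in Atf4 (14.51, others 14.39 to 14.43).

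Among trastuzumab samples, G2 was low in Cxcl9 (12.25, others 13.34 to 13.94), in Ly6a (14.09, others 15.04 to 15.27), in Tuba8 (4.59) and in Cth, which makes cysteine (5.75, others 6.23 to 6.50). It was high in Lcp1 (15.78, others 15.48 to 15.57) and in the level of microtubule regulators (0.066, others -0.020 to 0.0060). H2 was low in 3 tubulins, Tuba4a (12.42), Tubb2a (11.61) and Tubb4b (12.58). E2 was low in Atf4 (14.03, others 14.18 to 14.24) and in the level of endoplasmic reticulum stress genes (-0.12), and high in the keratin gene Krt14 (5.74, others 4.73 to 5.05). F2 was high in the level of immediate early and heat shock genes (0.062, others -0.16 to -0.081).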

How the results depend on the processing

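All 110 called genes kept their direction without E2 and B3, in a fit that shares all its samples with the main one and so is no independent check. Counts are given here as higher and then lower with T-DM1, beside 36 and 74 over all samples. They were 6 and 18 without E2 and B3, 20 and 118 when untreated B1 and C1 were left out too, 179 and 245 with only the 2 arms, and 24 and 67 with the 2 arms and no E2 or B3. Quantile normalization gave 19 and 66, sample weights 591 and 641, and an adjusted p under 0.01 with a fold above 2 gave 1 and 11. Testing only genes above the median gave 0 and 4 in limma, with 572 and 605 at an unadjusted p under 0.05. With all genes tested, 7 and 26 of the calls lay above the median, so most of these were lost. Leaving out each replicate gave 8 to 53 higher and 23 to 113 lower. Quantile normalization called 79 of the 110 genes, sample weights all 110, and the fit without E2, B3, B1 and C1 called 69. The cause of these shifts was not tested. No paired analysis was possible because the titles give 1 code per sample and no replicate numbers that groups share. Depth limits could not be set, since the values hold no counts.

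Some log2 fold changes, none of them called, changed sign. Without E2 and B3, in all 3 fits without them, Bank1 was 0.65 (-0.33 over all samples), H2-Oa 0.73, Nlrc5 0.045, Slc46a3 0.022 (-0.28 over all samples), Ly6a 0.063, Lif -0.13, Tuba1b -0.088, Tuba1c -0.0052 and Tube1 -0.049. With sample weights Bank1 was 0.092, H2-Oa 0.33, Lif -0.036, Cyba 0.024, Tuba1b -0.011 and Ly6a 0.023, and with quantile normalization Pax5 was -0.012 and Tube1 -0.0075. Across fits that left out 1 replicate, Lat ran from -0.13 to 0.50, Gzmc from -0.17 to 0.055, Tnfrsf9 from -0.0057 to 0.078, Bank1 from -0.62 to 0.11, Pax5 from -0.35 to 0.50, H2-Oa from -0.25 to 0.35, Fcgr1 from -0.014 to 0.15, Tuba1b from -0.030 to 0.092, Tubg1 from -0.024 to 0.079, Tube1 from -0.021 to 0.026, Ly6a from -0.19 to 0.050 and Ly6i from -0.067 to 0.28. List medians that moved by more than the spread between mice, in all 3 fits without E2 and B3, were those of endoplasmic reticulum stress (-0.037), fibroblasts and matrix (0.16) and p53 targets (0.021, or 0.020 with sample weights).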

Other observations

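The genes below were called and are named after their values were seen. Alox15, a lipoxygenase that oxidizes polyunsaturated fatty acids, ran from 5.20 to 5.57 with T-DM1 and from 5.82 to 7.13 with trastuzumab (log2 fold change -0.96 ± 0.21 SE, limma adjusted p = 0.031). T-PNU samples ran from 6.08 to 7.25, and untreated samples from 5.32 to 6.12 (median 5.58), nearer to T-DM1. Aoah, which inactivates bacterial lipopolysaccharide, fell by 1.11 on the log2 scale, and its arms overlapped. Pros1, a ligand of Mertk, fell by 0.78, and Cd302, a lectin receptor of phagocytes, fell by 0.76. None of these 4 was called without E2 and B3. Cth, which makes cysteine from cystathionine, fell by 0.78, and the lysosomal protease gene Ctsf fell by 0.72, and both were called with and without E2 and B3 and lay below every untreated and T-PNU sample.

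Other falls called in both fits were Kcnj10, a potassium channel (-1.18), Igf2bp3, an RNA-binding protein (-1.31), Zdhhc2, a palmitoyltransferase (-0.95), Mab21l3 (-0.79) and Cdkn2b, an inhibitor of cyclin-dependent kinases (-0.47). Other rises called in both fits included Agt (0.84), Mst1r, the receptor tyrosine kinase RON (0.80), and Card14 (0.26). These averaged under the median of all genes, where fold changes may be understated.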
